A study of Mus musculus with 58 samples.

Results

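The libraries described here were made from monocytes isolated from mouse liver: 4 libraries taken 2 weeks after common bile duct ligation (CBDL2w, which the labels place at the onset of cholestatic injury) and 3 control libraries taken 6 weeks after a sham operation (Sham6w). They were found by the cell type and group in the sample labels, and make up 7 of the 58 libraries of the series and 7 of its 19 monocyte libraries. All mice were of strain 129SV. The ligated mice were 2 weeks and the sham mice 6 weeks past surgery, so ligation and time since surgery cannot be told apart in this comparison. Each CBDL2w library carries 1 replicate number (1 to 4), while the Sham6w libraries carry the numbers 1+2+5, 3+6 and 4, the joined numbers marking pooled replicates. The sources used here give neither age, sex nor sort gates, and nothing states that replicates came from separate animals. The p-values therefore measure a spread between libraries. For single genes this spread was taken from all 19 monocyte libraries, and for differences between cell types from all 58 libraries. The series also holds monocytes from mice 6 weeks after ligation (CBDL6w, 4 libraries), from mice with acute colitis (DSS, 4 libraries) and from mice with both (CBDL+DSS, 4 libraries), and the same 5 groups of monocyte-derived macrophages and Kupffer cells.

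Ligation of the common bile duct stops the flow of bile to the gut, so that bile acids build up in the liver and duct and hepatocyte injury follow. Circulating monocytes enter the injured liver, where classical (Ly6C-high) monocytes give rise to macrophages. Classical monocytes are known for Ccr2-dependent recruitment and for secreted proteins such as versican and fibronectin, whereas patrolling (Ly6C-low) monocytes stay in the vessels and depend on Nr4a1.

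Messenger RNA was counted by sequencing of 3′ ends, which gives about 1 tag per transcript, so a value does not grow with the length of the gene. Totals were 237350 to 252775 reads in the Sham6w libraries and 252050 to 369898 in the CBDL2w libraries, and every value below is a deposited normalized count unless another scale is named. The label was checked against its markers. In the Sham6w monocytes the mean level of Ly6c2, which encodes a surface antigen of classical monocytes, was 172.6, against 8.03 in Sham6w monocyte-derived macrophages and 0.684 in Sham6w Kupffer cells. Adgre1, which encodes F4/80, stood at 25.2 in monocytes, 64.3 in monocyte-derived macrophages and 202.0 in Kupffer cells. Lyz2, the lysozyme of myeloid cells, was present in all 7 monocyte libraries at 770.2 to 1397.

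RNA of cells that are not monocytes is described apart, since the endothelial and lymphoid lists had larger ratios between the groups than any list of monocyte state. The 23 listed genes of liver endothelium in the table made up 0.446% to 0.767% of the normalized total in the Sham6w libraries and 0.0191% to 0.0349% in the CBDL2w libraries, a ratio of means of 20.9. The groups did not overlap (two-sided exact permutation test over libraries, p = 0.0286, the smallest that 3 against 4 libraries allow; 0.0442 after Benjamini-Hochberg adjustment over 17 lists). All 22 of these genes that were tested fell, with a median log2 difference of -4.15, from -1.70 for Pecam1 (the junction protein CD31, which leukocytes also carry) to -5.90 for Egfl7. Ptprb, the phosphatase VE-PTP of endothelial junctions, was at 171.9, 317.5 and 174.5 in the Sham6w libraries and at 7.38, 4.51, 5.28 and 5.07 in the CBDL2w libraries (log2 difference -5.04, SE 0.39, limma with Benjamini-Hochberg adjusted p = 6.77e-08). Kdr, the VEGF receptor of endothelium, fell from a mean of 162.2 ± 38.4 (SD, n = 3) to 3.50 ± 2.19 (SD, n = 4), and Igfbp7 fell from 404.1 ± 112.0 to 12.9 ± 7.74. In the DSS libraries the endothelial share was 0.356% to 0.711%, near that of Sham6w, and in the CBDL6w and CBDL+DSS libraries it was at most 0.061%. In Sham6w monocyte-derived macrophages and Kupffer cells the share was lower than in Sham6w monocytes, at 0.0489% to 0.105% and 0.0537% to 0.106%.

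Summed lymphoid RNA was scarcer and also lower after ligation. The B cell list went from 0.0358% to 0.0621% of the total in the Sham6w libraries to 0.00629% to 0.0122% in the CBDL2w libraries, the plasma cell list from a mean of 0.049% to 0.0115%, the T cell list from 0.00842% to 0.0011%, and the list of NK and innate lymphoid cells from 0.0223% to 0.00304%. None of these 4 lists overlapped between the groups (exact permutation p = 0.0286 each, adjusted p = 0.0442). With the median log2 level of a list in place of its sum, the B and T cell lists lost this separation (exact permutation p = 0.257 and 1). Few of their genes were abundant enough to test. Of 4 tested genes of the B cell list the 2 immunoglobulin genes fell, Igkc from 82.2 ± 28.7 (SD, n = 3) to 3.38 ± 2.38 (SD, n = 4) and Ighm from 34.0 ± 17.1 to 4.36 ± 2.08. Jchain and Igha of the plasma cell list, Il7r of the T cell list, and Ccl5 and Gzma of the NK list fell as well. The plasma cell list had 4 tested genes, of which 1 had a positive difference (0.62) that did not pass. Gzma, a granule protease of killer cells, was at 3.94, 10.9 and 29.1 in the Sham6w libraries and at 0 in all 4 CBDL2w libraries, at least 20.7-fold lower when set against a floor of 3 reads over the group. The B cell marker Cd79a was at 0 in all 7 libraries, and the other tested genes of the B cell list had positive differences that did not pass, 1.28 for Bank1 (adjusted p = 0.394) and 0.22 for Cd37 (adjusted p = 0.83). Cd3d of T cells reached at most 1.31 in any library, and Ncr1 of NK cells was at 1.12 to 8.45 in Sham6w and at 0 in CBDL2w.

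Further lists were lower to different degrees. All 5 tested genes of plasmacytoid dendritic cells fell, among them Siglech (47.2, 91.8 and 80.6 in Sham6w, 0 to 4.40 in CBDL2w), Tcf4 (452.8 ± 41.7 to 132.8 ± 34.8) and Bst2. The stellate cell and fibroblast list, whose only tested gene was Sparc and 10 of whose 17 genes were at 0 in all Sham6w libraries, had a mean share of 0.092% and 0.00784%, and its median log2 level had a difference of 0.216 (exact permutation p = 1). Sparc, a matrix protein that endothelium also makes, fell from 263.1 ± 72.7 (SD, n = 3) to 16.1 ± 4.72 (SD, n = 4). The neutrophil list did not separate the groups (exact permutation p = 0.114), and S100a8 and S100a9 varied within the sham group. S100a9 was at 13.1, 258.4 and 196.9 in the Sham6w libraries and at 38.5, 6.31, 0 and 19.0 in the CBDL2w libraries. S100a9 passed the threshold (adjusted p = 0.0406, limma) while its groups overlapped, and S100a8 did not (adjusted p = 0.142). Mmp8, neutrophil collagenase, rose from 12.5 ± 2.52 to 39.0 ± 7.73. The Kupffer cell list, at a mean of 0.158% and 0.0853%, overlapped between the groups. In bulk RNA fewer cells of a type and less RNA per cell cannot be told apart.

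**Figure D1:**
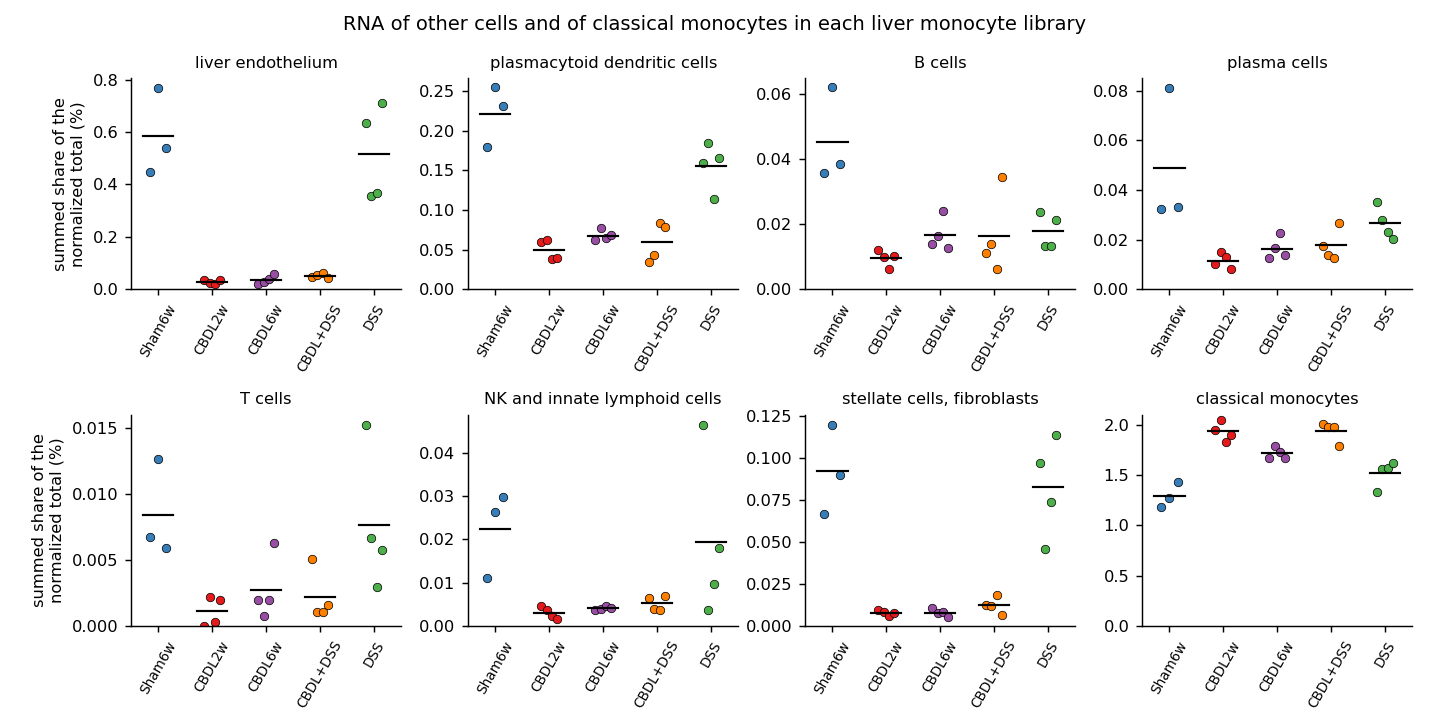
Summed share of the normalized total (percent, vertical axis) of 7 lists of other cells and of the classical monocyte list in each of the 19 monocyte libraries, by group; points are libraries and lines are means. The endothelial share lies at 0.446% or more in the 3 Sham6w libraries and at 0.0349% or less in the 4 CBDL2w libraries, and the classical monocyte share is higher in CBDL2w (1.83% to 2.05%) than in Sham6w (1.18% to 1.43%).

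Across the 6112 genes tested, 492 rose and 349 fell after early ligation at an adjusted p under 0.05 (limma, two-sided, log2 of the normalized count plus a pseudocount of 1). That is 8.05% of the genes tested in the upward and 5.71% in the downward direction, the background for the lists that follow. Leaving out the Sham6w library 3+6 lowered the counts to 332 and 227. Among the named genes, 29 lost their call when 1 library or another was left out (limma adjusted p of 0.0506 to 0.206): Eno1, Arg1, Ccr1, Ccr2, C5ar1, Cd14, Lyz2, Ctss, Cox7a2, Ndufa3 and Spp1 among the rises, and Dnaja1, Mndal, Srsf7, Ctnnd1, Itgal, Maf, Mertk, Mylip, Apoe, H2-K1, Isg15, Rsad2, Iigp1, Atf4, Il7r, Ccl5, Gzma and S100a9 among the falls. The rises were modest, with a median log2 difference of 0.98, and the falls were steep, with a median of -2.48, while the median over all genes tested was -0.10. Of the 349 genes that fell, 229 had a mean under 10 in the CBDL2w libraries. These 229 genes included 19 of the listed endothelial genes, and their median level in CBDL6w was 0.095 of that in Sham6w, while in DSS it was 0.715 of it. For the 22 tested endothelial genes the same ratios were 0.041 and 0.819. The other 120 genes that fell kept a mean of 10 or more, with a median difference of -1.24. Of the 492 genes that rose, 227 are annotated as pseudogenes, 80 of which carry the name of a ribosomal protein gene. Pseudogenes made up 651 of the 6112 genes tested, 156 of them with such a name, and 4 of the 349 genes that fell. A pseudogene can take reads from its near-identical parent, so these rises are uncertain as single genes.

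With the mean log2 level of the endothelial list as a covariate, 0 genes passed the threshold, while 425 of the 492 rises and 240 of the 349 falls kept their sign. With the mean log2 level of the B, T and NK lists as a covariate, 56 genes rose and 82 fell, 53 of the first and 77 of the second being called without it, and every called gene kept its sign. Of the 122 named genes 69 lost their call under it, Hspa1a, Hspa1b, Dnaja1, Isg15 and H2-K1 among them. Named genes outside the other-cell lists that still passed included Fn1, Lgals3, Itgam, Chil3, Pgam1, Uqcrh and Rpl35a upward. Downward they included Hsp90aa1, Hsp90ab1, Hsp90b1, Herpud1, Selenop, Ctsl and Cxcl9. The endothelial level differed between the groups without overlap, so endothelial RNA and ligation cannot be told apart in the difference of a single gene. The summed shares of the B, T and NK lists did not overlap between the groups either. Lymphoid RNA and ligation can therefore not be fully told apart under that covariate, for genes that kept their call or lost it. Igkc, Ighm, Il7r, Ccl5 and Gzma also belong to the lists that form the lymphoid covariate.

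**Figure D2:**
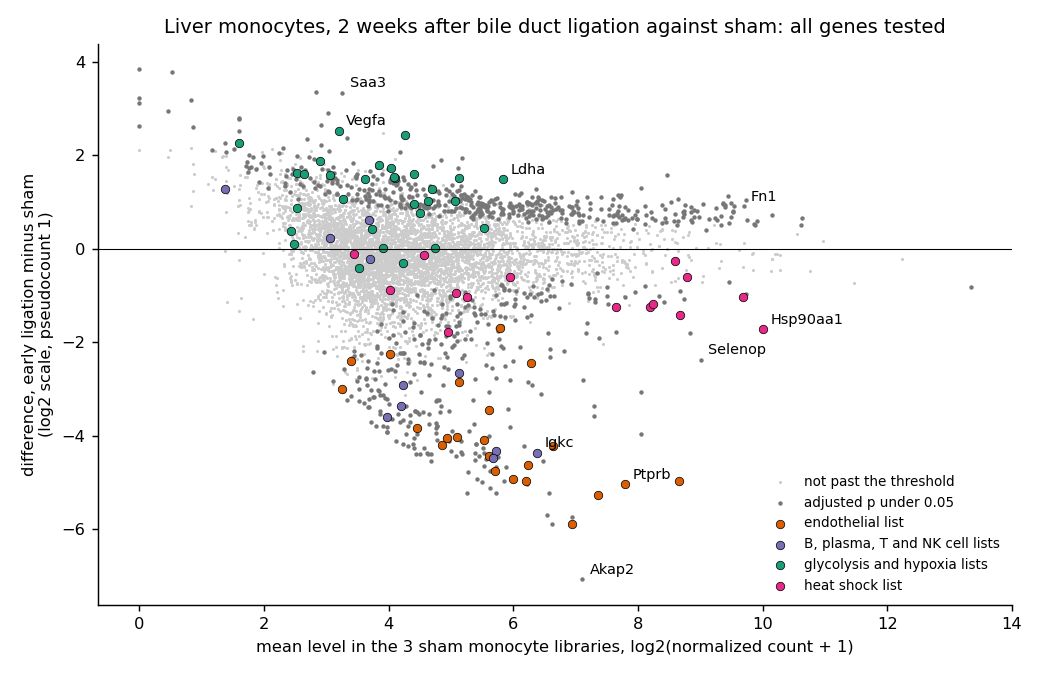
Difference between the CBDL2w and Sham6w monocytes (log2 scale, vertical axis) against the mean level in the 3 Sham6w libraries (log2 of the normalized count plus 1, horizontal axis) for the 6112 genes tested; dark grey points passed an adjusted p of 0.05 and coloured points are members of the lists named in the key. The 22 endothelial genes lie between -1.70 and -5.90, while glycolysis and hypoxia genes lie mostly above 0 (16 of 17 and 12 of 13) and all 15 heat shock genes below it.

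Genes of glycolysis and of the response to low oxygen rose in number. Of 17 tested glycolysis genes 9 rose and 0 fell, with a median log2 difference of 1.03, and of 13 tested hypoxia genes 7 rose and 0 fell, with a median of 1.51. Pgam1, Eno1, Pgk1 and Ldha, enzymes of glycolysis and lactate formation, were among the 12 largest rises under the naming rule (a mean of at least 50, no overlap), and so was Higd1a, a mitochondrial protein induced by hypoxia. Hypoxia-inducible factors bind a core of the letters ACGTG. Promoters are shown for the 3 of these enzymes that held it, with each ACGTG on either strand in capitals. The 3 windows of Eno1 held 0 matches and are not shown. Each promoter is the 250 bases before a RefSeq start (GRCm38.p6). On the other strand the motif reads CACGT, and overlapping matches run together as CACGTG. Ldha lies at chr7:46845554-46845803, Pgk1 at chrX:106186850-106187099 and Pgam1 at chr19:41911621-41911870, all on the plus strand.
Ldha: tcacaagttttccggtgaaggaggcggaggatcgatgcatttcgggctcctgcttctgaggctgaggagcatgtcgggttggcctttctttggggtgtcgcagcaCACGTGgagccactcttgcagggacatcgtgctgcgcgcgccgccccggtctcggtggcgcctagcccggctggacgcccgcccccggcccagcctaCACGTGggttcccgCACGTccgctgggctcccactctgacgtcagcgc
Pgk1: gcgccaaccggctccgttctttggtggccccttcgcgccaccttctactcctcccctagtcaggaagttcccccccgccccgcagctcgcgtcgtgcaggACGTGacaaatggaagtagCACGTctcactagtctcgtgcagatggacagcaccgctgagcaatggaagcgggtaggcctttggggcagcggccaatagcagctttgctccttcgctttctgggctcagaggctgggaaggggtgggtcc
Pgam1: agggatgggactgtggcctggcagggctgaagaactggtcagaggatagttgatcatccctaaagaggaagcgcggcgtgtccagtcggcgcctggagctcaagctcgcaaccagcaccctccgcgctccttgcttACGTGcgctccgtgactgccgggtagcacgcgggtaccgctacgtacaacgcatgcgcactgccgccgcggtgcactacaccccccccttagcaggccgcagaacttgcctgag
Ldha holds 5 matches in this window, where each CACGTG counts on both strands, Pgk1 holds 2 and Pgam1 holds 1. A second Ldha window, at chr7:46846832-46847081, holds 0 matches. RefSeq promoters were matched for 15 of the 16 glycolysis and hypoxia genes that rose, and 10 of these 15 held ACGTG on either strand in at least 1 window. Over their 21 windows, 10 held it, against 16.6% of the 32851 windows of the same length in the table. Glycolysis and hypoxia genes that did not rise were not compared, so this share cannot be tied to the rise. A match describes the letters and is no evidence of binding, and the genes whose windows held no match (Higd1a, Eno1, Mif, Tpi1 and Gapdh) rose too.

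Ldha, which turns pyruvate into lactate, was at 78.7, 59.2 and 30.2 in the Sham6w libraries and at 174.7, 137.0, 141.8 and 144.5 in the CBDL2w libraries (log2 difference 1.496, SE 0.24, limma adjusted p = 0.000183). Each ligated library stood above each sham library. Pgk1, phosphoglycerate kinase, was at 21.0, 41.1 and 40.3 and then at 89.4, 100.9, 94.2 and 97.6 (1.52, SE 0.25, adjusted p = 0.000258). Pgam1, phosphoglycerate mutase, was at 11.8, 14.5 and 20.1 and then at 59.0, 46.9, 54.6 and 49.4 (1.72, SE 0.24, adjusted p = 6.67e-05). The absence of overlap was a condition for naming these 3 enzymes among the largest rises, and 22.9% of all genes tested had it. Their ligated libraries lay close together. Vegfa, the endothelial growth factor, was at 13.1, 2.41 and 8.95 in sham monocytes and at 68.1, 44.2, 35.2 and 35.5 after ligation (2.52, SE 0.46, adjusted p = 0.000578). Mif, a cytokine, rose from 16.2 ± 5.41 (SD, n = 3) to 47.04 ± 8.69 (SD, n = 4), and P4ha1, a collagen prolyl hydroxylase, from 6.44 ± 0.355 to 27.7 ± 9.97. Arg1, which splits arginine, rose from 2.02 ± 0.732 to 14.1 ± 5.81 at an adjusted p of 0.0362 in limma. With the lymphoid level as a covariate Pgam1 still passed. Ldha (1.19, adjusted p = 0.0608), Pgk1 (0.96, adjusted p = 0.13) and Vegfa (1.81, adjusted p = 0.139) did not. Mif, P4ha1, Eno1, Higd1a and Arg1 did not either, at adjusted p of 0.183 to 0.314. With the endothelial level Eno1 turned to -0.05 (limma adjusted p = 0.996), a sign that gives no direction.

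The classical monocyte list moved upward. Of its 22 tested genes 11 rose and 1 (S100a9) fell, and the list made up 1.18% to 1.43% of the total in Sham6w libraries and 1.83% to 2.05% in CBDL2w libraries. Fn1, fibronectin, was at 813, 805 and 861.5 in the sham libraries and at 1731, 1690, 1432 and 1420 in the ligated ones (log2 difference 0.92, SE 0.15, adjusted p = 0.000217). Vcan, versican, was at 30.2, 32.6 and 20.1 and then at 66.4, 138.8, 105.7 and 121.7 (1.91, SE 0.32, adjusted p = 0.000258). Neither gene overlapped between the groups, a separation that 22.9% of all genes tested showed. F13a1, the A chain of clotting factor XIII, rose from 149.2 ± 37.0 (SD, n = 3) to 292.8 ± 43.4 (SD, n = 4), and F10, clotting factor X, from 33.5 ± 11.0 to 109.9 ± 10.9. Thbs1, thrombospondin, rose from 6.53 ± 1.81 to 35.3 ± 12.9. Gda, guanine deaminase, and Plac8 rose from 96.6 ± 6.37 to 210.7 ± 15.8 and from 211.4 ± 21.7 to 474.3 ± 90.9. Ly6c2 itself was not among the rises, at 172.6 ± 47.3 and 128.4 ± 17.0 (adjusted p = 0.197, limma), and Lyz2 rose by 0.51 on the log2 scale. With the endothelial level as a covariate F10 turned to -0.16 while Fn1 and Vcan stood at 1.47 and 1.61, with none past the threshold. With the lymphoid level Fn1 still passed, while Vcan (1.45, adjusted p = 0.0881), F10 (0.89, adjusted p = 0.451), F13a1, Thbs1, Gda, Plac8, Ccr2 and Lyz2 did not. Of 16 tested genes of matrix and clotting, 8 rose, among them Lgals3 (galectin-3, 121.7 ± 27.9 to 277.7 ± 13.4), and 4 fell, among them Sparc and Timp3, which liver endothelium and stellate cells also express.

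**Figure D3:**
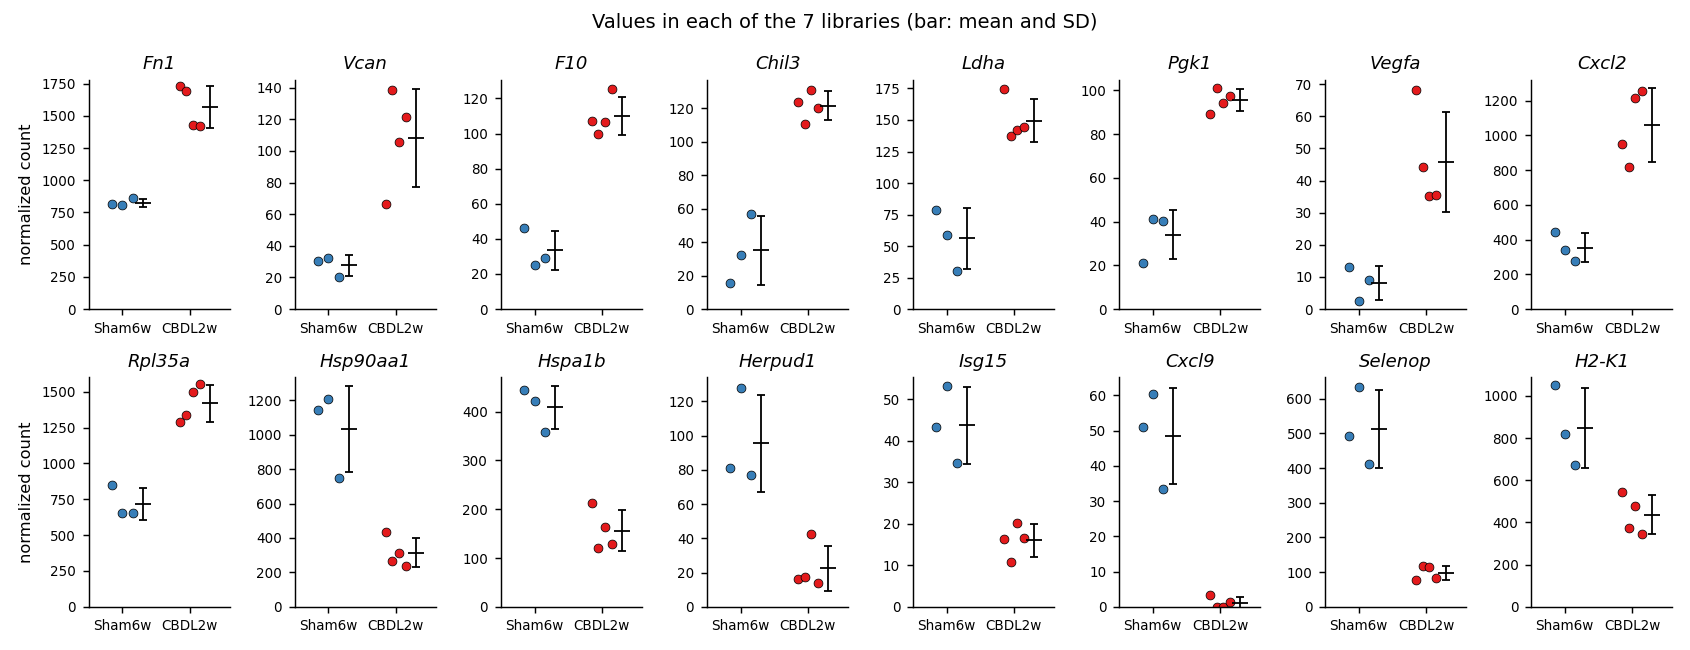
Normalized counts (vertical axis, from 0) of 16 named genes in the 3 Sham6w (blue) and 4 CBDL2w (red) libraries; points are libraries and bars give the mean and SD. Each of the 9 genes of rising level, Fn1 to Rpl35a, and each of the 7 of falling level, Hsp90aa1 to H2-K1, shows groups that do not overlap. Of all genes tested, 22.9% had such groups, and for part of the 16 this was a condition of naming.

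Of 13 tested chemokines 4 rose (Cxcl2, Cxcl3, Ccl6 and Ccl9) and 2 fell (Cxcl9 and Ccl5). Cxcl2, a neutrophil attractant, was at 442.1, 340.4 and 276.3 in Sham6w and at 948.7, 815.5, 1216 and 1254 in CBDL2w (log2 difference 1.59, SE 0.32, limma adjusted p = 0.00143). Cxcl3, of the same family, was at 1.31, 0 and 0 and then at 9.84, 9.91, 30.8 and 27.9 (adjusted p = 0.000732). Cxcl9, a T cell attractant induced by interferon gamma, went the other way, from 51.2, 60.4 and 33.6 to 3.28, 0, 0 and 1.27 (-4.76, SE 0.73, adjusted p = 0.000159). With the endothelial level as a covariate Cxcl9 turned to 3.27 and Cxcl2 stood at 1.51, neither past the threshold, and with the lymphoid level Cxcl2 stood at 0.81 (adjusted p = 0.334). Among 11 tested receptors of chemokines and chemoattractants 3 rose and 0 fell: Ccr2 (252.6 ± 26.1 to 403.9 ± 106.0), Ccr1 (13.3 ± 1.10 to 33.2 ± 6.47) and C5ar1, the receptor of complement C5a (3.91 ± 2.28 to 19.7 ± 6.395). Il1b, at 385.7 ± 20.8 and 512.4 ± 131.4, did not pass the threshold (adjusted p = 0.296), and in the NF-kB cytokine list only Cd14, the lipopolysaccharide coreceptor, rose, from 40.9 ± 8.61 to 96.9 ± 16.4, out of 22 tested genes. Ier3, an early response gene, rose from 81.3 ± 31.5 to 191.7 ± 41.4.

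Of 18 tested antimicrobial and alarmin genes 7 rose and 2 fell. Saa3, an acute phase protein, had the largest of the 12 rises, from 6.56, 1.21 and 17.9 to 32.0, 91.0, 60.8 and 119.2 (log2 difference 3.34, SE 0.64, limma adjusted p = 0.00105). Chil3, the chitinase-like protein Ym1, was at 15.7, 32.6 and 57.1 and then at 123.8, 110.8, 131.2 and 120.4, and its relative Chil1 rose from 17.1 ± 3.50 to 77.2 ± 22.0. Slpi, a protease inhibitor, rose from 13.1 ± 4.17 to 48.6 ± 17.3. With the endothelial level as a covariate Saa3, Chil1 and Slpi turned negative (-1.99, -0.26 and -0.53), and Chil3 stood at 2.10. The limma adjusted p of these 4 genes were 0.817 to 0.984. The endothelial level did not overlap between the groups, so these signs give no direction. With the lymphoid level Saa3 (1.71, adjusted p = 0.305), Chil1 and Slpi lost their calls, and Chil3 kept its own. AI413582 was the remaining member of the 12 largest rises (17.9 ± 4.44 to 52.1 ± 14.4). Of 13 integrin and selectin ligand genes 3 rose and 2 fell, and Itgam, the CD11b integrin chain, rose from 191.8 ± 46.1 to 398.9 ± 37.6. Of 5 Fc receptor genes 2 rose, Fcgr3 (82.4 ± 18.4 to 166.9 ± 29.6) and Fcer1g (132.4 ± 12.7 to 220.7 ± 37.5). Of 13 C-type lectins Clec4n, which encodes Dectin-2, rose (7.11 ± 7.98 to 36.4 ± 12.0) and Mrc1 and Clec10a fell. Alox5ap, which activates leukotriene synthesis, rose from 203.5 ± 26.7 to 353.3 ± 13.2, and Fth1, the ferritin heavy chain, from 736.1 ± 62.1 to 1269 ± 170.1.

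Ribosomal protein genes made up 9.69% to 10.9% of the total in the Sham6w libraries and 14.2% to 18.2% in the CBDL2w libraries (exact permutation p = 0.0286, adjusted p = 0.0442). Of 86 tested ribosomal protein genes 60 rose and 0 fell, with a median log2 difference of 0.68. Rpl35a was at 847.5, 651.9 and 651.1 in sham and at 1287, 1335, 1502 and 1553 after ligation (0.99, SE 0.13, adjusted p = 2.71e-05), and Rps23 and Rps27a moved by 0.92 and 0.93. When the median log2 level of the ribosomal genes replaced their summed share, the exact permutation p was 0.0571. Of 47 tested nuclear genes of the respiratory chain 12 rose and 0 fell (median 0.42, with 10 of the 47 negative), among the rises Uqcrh of complex III (77.7 ± 7.75 to 173.4 ± 44.4), Cox7a2 of complex IV and Ndufa3 of complex I. Genes of the mitochondrial genome, at 4.58% to 6.54% and 2.85% to 6.44% of the total, overlapped between the groups (exact permutation p = 0.343), and of their 14 tested genes 0 passed the threshold and 13 were negative.

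**Figure D4:**
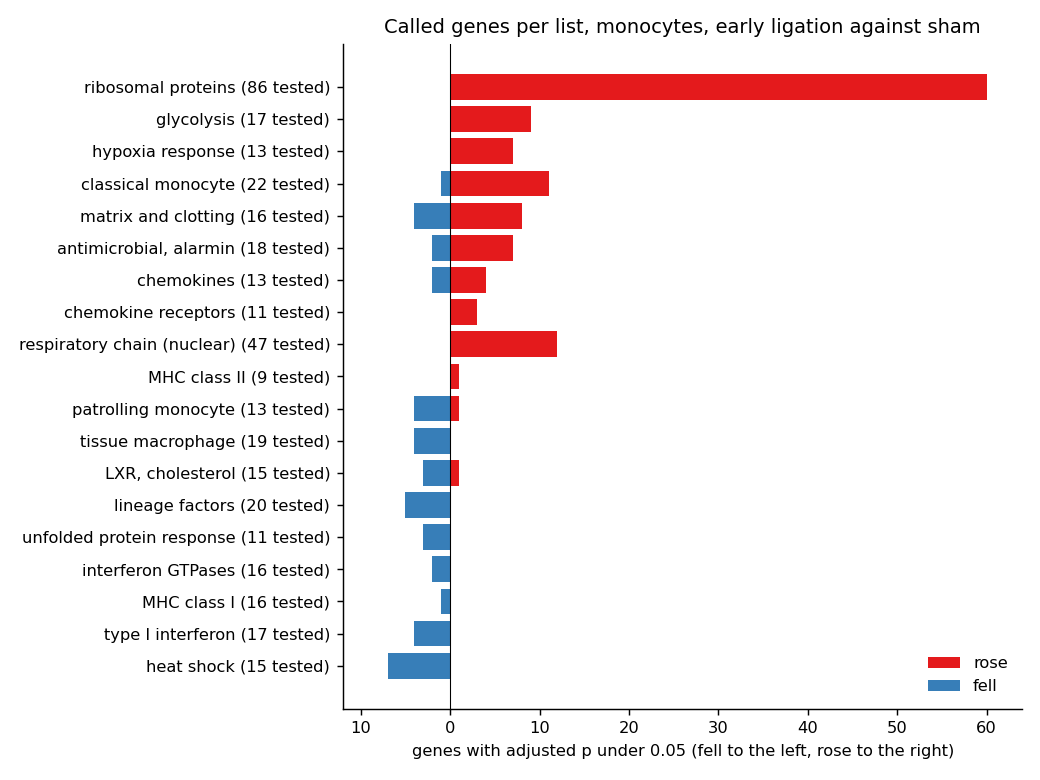
Number of genes with an adjusted p under 0.05 in each list (horizontal axis), those that rose to the right in red and those that fell to the left in blue, with the number tested beside each list name. Ribosomal protein (60 of 86), glycolysis (9 of 17) and hypoxia (7 of 13) genes extend only to the right, while heat shock (7 of 15) and type I interferon (4 of 17) genes extend only to the left.

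Heat shock genes fell as a list while keeping a high level. Of 15 tested members 7 fell and 0 rose, all 15 had a negative difference, and the median was -1.03. Hsp90aa1, the inducible cytosolic HSP90, was at 1143, 1205 and 747.3 in the Sham6w libraries and at 434.6, 268.5, 315.3 and 239.6 in the CBDL2w libraries (log2 difference -1.72, SE 0.22, limma adjusted p = 2.02e-05). Hsp90ab1, its constitutive partner, fell from 820.1 ± 150.2 (SD, n = 3) to 395.9 ± 51.6 (SD, n = 4), and the cochaperone Dnaja1 from 301.5 ± 100.5 to 132.5 ± 38.8. Hspa1b was at 444.7, 422.5 and 359.1 and then at 212.4, 120.7, 162.9 and 128.0 (-1.42, SE 0.25, adjusted p = 0.00049), and Hspa1a fell from 292.9 ± 66.7 to 125.3 ± 36.2. Hspa1a and Hspa1b encode near-identical HSP70 chains, so reads can be shared between them and their values are not separate evidence. Their promoters are shown because they differ at 3 of 250 bases and both hold GAANNTTC, an inverted pair of the units that heat shock factor binds, in capitals here. Hspa1a lies at chr17:34972157-34972406 and Hspa1b at chr17:34959239-34959488, both on the minus strand (RefSeq, GRCm38.p6, 250 bases before the start).
Hspa1a: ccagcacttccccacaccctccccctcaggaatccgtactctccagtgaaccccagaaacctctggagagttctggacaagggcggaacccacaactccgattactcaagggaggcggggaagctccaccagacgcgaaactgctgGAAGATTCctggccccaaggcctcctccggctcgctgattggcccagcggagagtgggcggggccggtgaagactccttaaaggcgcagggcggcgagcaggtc
Hspa1b: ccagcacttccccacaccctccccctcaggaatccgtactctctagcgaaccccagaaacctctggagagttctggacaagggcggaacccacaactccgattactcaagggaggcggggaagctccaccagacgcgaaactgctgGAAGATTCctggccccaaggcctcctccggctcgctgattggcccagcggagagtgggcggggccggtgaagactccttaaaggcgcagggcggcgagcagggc
Of the 7 heat shock genes that fell, 5 had a RefSeq promoter and 3 of these held the motif in at least 1 window. Over their 8 windows, 3 held it, of which 2 are the near-identical copies of Hspa1a and Hspa1b, against 6.69% of all 32851 windows. Dnaja1 was the third gene, and the windows of Hsp90b1 and Hsph1 held no match. Heat shock genes that did not fall were not compared, so the share of windows cannot be tied to the fall.

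Of 11 tested genes of the unfolded protein response 3 fell and 0 rose, with a median of -0.67: Herpud1, which serves degradation at the endoplasmic reticulum (81.3, 128.0 and 77.2 in sham and 16.4, 17.1, 42.3 and 13.9 after ligation), Hsp90b1, the chaperone GRP94, also counted in the heat shock list (199.2 ± 35.2 to 85.0 ± 25.9), and Atf4, a stress transcription factor (75.9 ± 13.0 to 38.7 ± 10.7). The adjusted p of Herpud1 was 0.000176 in limma, at a log2 difference of -2.15.

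Few single genes of the interferon and MHC class I lists passed, although their differences were mostly negative. Of 17 tested type I interferon genes 4 fell and 0 rose, and the difference was negative for all 17, with a median of -1.05. Isg15, a ubiquitin-like protein, was at 43.3, 53.1 and 34.7 in Sham6w and at 16.4, 10.8, 20.3 and 16.5 in CBDL2w (-1.41, SE 0.40, limma adjusted p = 0.0214). Rsad2, viperin, fell from 32.2 ± 11.9 to 8.88 ± 6.67, and Ifi44 from 26.8 ± 3.94 to 8.48 ± 3.51. Bst2, tetherin, was the remaining gene of the list that fell, and it is also a marker of plasmacytoid dendritic cells, whose summed share fell 4.46-fold in the same libraries. Ifi203 and Mndal, of the interferon-inducible p200 family, fell from 339.0 ± 87.7 to 153.0 ± 29.5 and from 426.2 ± 99.2 to 207.5 ± 61.5. The annotated loci of Ifi203 and Mndal overlap, so reads may be shared between them and their falls may not be separate. Of 16 interferon-induced GTPases, 2 fell, Gbp9 and Iigp1, and 0 rose, with a negative difference for 15 of the 16. Cxcl10 stood at 117.8 ± 44.6 and 54.4 ± 28.2 with an adjusted p of 0.0634 in limma, and overlapped. Of 16 tested MHC class I genes only H2-K1, a heavy chain, fell (1052, 818.5 and 673.5 to 543.6, 373.1, 480.0 and 347.3, adjusted p = 0.00877), a share near the 5.71% of all genes that fell, and all 16 had a negative difference (median -0.64). With the endothelial level as a covariate Isg15 (1.197), Rsad2 (2.08) and H2-K1 (0.10) turned positive, at limma adjusted p of 0.912, 0.852 and 0.992. The endothelial level did not overlap between the groups, so these signs give no direction. For class II, Cd74, the invariant chain, stood at 308.2 ± 66.0 and 179.0 ± 28.7 (adjusted p = 0.114), H2-Aa at 518.2 ± 63.3 and 320.9 ± 61.8 (adjusted p = 0.0919) and H2-Ab1 at 366.7 ± 40.1 and 228.0 ± 51.6 (adjusted p = 0.0934). These 3 genes did not overlap between the groups, as was so for 22.9% of all genes tested, but missed the threshold, and in the class II list of 9 tested genes only Ctss, the protease cathepsin S, passed it, upward (613.9 ± 77.9 to 940.6 ± 56.3).

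Of 13 tested patrolling genes 4 fell and 1 rose. Klf2, a quiescence factor that endothelium also expresses, fell from 104.8 ± 5.83 to 43.4 ± 10.2, Itgal, the LFA-1 integrin chain, from 180.3 ± 29.4 to 102.1 ± 12.2, and the scavenger receptor Cd36 from 40.3 ± 8.06 to 4.25 ± 5.21. Nr4a1 (371.8 ± 11.7 and 314.4 ± 65.9), Cx3cr1 (147.6 ± 11.1 and 118.6 ± 27.0) and Spn (22.7 ± 6.58 and 8.39 ± 4.45) did not pass, at adjusted p of 0.455, 0.4 and 0.0593 in limma. Of 19 tested macrophage genes 4 fell and 0 rose: Mrc1, the mannose receptor that liver endothelium also carries (143.0, 204.0 and 123.1 to 4.10, 45.1, 12.3 and 7.61), Maf, Mertk and Apoe. Csf1r (161.7 ± 38.7 and 195.2 ± 27.0), Adgre1 (25.2 ± 11.2 and 38.0 ± 16.4) and C1qa (37.7 ± 28.4 and 24.5 ± 13.5) did not pass, nor did Trem2 (6.79 ± 6.57 and 9.11 ± 3.24), Gpnmb (12.4 ± 7.49 and 6.72 ± 2.27) and Cd63 (34.2 ± 17.9 and 17.9 ± 8.95), genes of scar-associated macrophages. Spp1, osteopontin, rose from 51.2, 13.3 and 11.2 to 68.1, 124.4, 81.9 and 34.2 with overlapping groups (adjusted p = 0.0461). Of 15 tested genes of cholesterol handling 3 fell, Cd36, Mylip and Apoe, and 1 rose. Of 20 lineage transcription factors 5 fell and 0 rose, among them Maf, Id1 and Id3, the last of these a Kupffer cell marker too.

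The 12 largest falls by the naming rule were Akap2, Tinagl1, Ehd3, Adgrf5, Mup9, Nr2f2, Mup14, Meis2, Col13a1, Dlc1, F8 and Igfbp4. All had means of at least 50 in Sham6w and under 5 in CBDL2w. F8, clotting factor VIII, and Nr2f2, a venous identity factor, are known products of liver endothelium, although they were not on the endothelial list. F8 was at 40.7, 73.6 and 43.6 in sham and at 0.820, 0.901, 0.881 and 3.80 after ligation. Akap2 was at 136.4, 171.4 and 102.9 and then at 0 in all 4 libraries, at least 194-fold lower against a floor of 3 reads over the group, and it shares its locus with Pakap, so that their reads cannot be separated. Mup9 and Mup14 belong to the major urinary protein genes of hepatocytes, a family of near-identical copies among which reads can be shared. The hepatocyte list as a whole fell from a mean of 0.04% to 0.0196% of the total (exact permutation p = 0.0286, adjusted p = 0.0442).

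Genes that fell while keeping a mean of at least 50 in CBDL2w were picked out after their values had been seen, under the same limits of no overlap, no pseudogene and no member of an other-cell list, which left out Tcf4 and Id3. The 12 with the largest fall were 5 chaperones (Hsp90aa1, Hspa1b, Hspa1a, Hsp90b1 and Dnaja1), Selenop, Ctnnd1, Smarca2, Ctsl, Ifi203, Mndal and Srsf7. Selenop, the plasma selenium carrier, was at 492.0, 633.8 and 412.8 in sham and at 77.1, 117.1, 114.5 and 83.7 after ligation (log2 difference -2.38, SE 0.24, limma adjusted p = 1.54e-06). Ctsl, cathepsin L, fell from 182.3 ± 46.0 to 78.8 ± 14.4. In DSS and CBDL6w monocytes the means of Selenop were 560.7 and 133.5, and those of Ctsl 283.4 and 56.45. Whether RNA of other cells contributed to these 2 genes was not tested. Ctnnd1, a junction protein, varied widely after ligation, at 37.7, 80.2, 1.76 and 87.5 against 161.4, 227.0 and 403.9 in sham (adjusted p = 0.0114).

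Early and advanced ligation were compared directly, since this contrast shares no control. Of 6112 genes 0 passed the threshold (0% called in limma, with 404 at an unadjusted p under 0.05, 0 by edgeR and 9 by DESeq2). The smallest adjusted p was 0.168. Cxcl2 had a mean of 1059 at 2 weeks and 467.4 at 6 weeks (unadjusted p = 0.000359, adjusted p = 0.172), Il1b 512.4 and 275.1 (adjusted p = 0.172), Thbs1 35.3 and 14.1 (adjusted p = 0.335) and Vegfa 45.7 and 18.2 (adjusted p = 0.558). In the other direction, Cxcl9 stood at 1.14 at 2 weeks and 18.4 at 6 weeks (adjusted p = 0.335) and Gbp9 at 2.87 and 17.7 (adjusted p = 0.174). Glycolytic genes did not pass either, with Ldha at 149.5 and 127.8 and Pgk1 at 95.5 and 80.5, and Rpl35a at 1419 and 1427.

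The effect of early ligation was also set against that in monocyte-derived macrophages. The difference of the effects passed for 104 of 7555 genes, 14 higher in monocytes (0.185%) and 90 lower (1.19%), by an interaction contrast in limma. Fn1 rose in monocytes from 826.7 to 1568, and its means in macrophages were 53.5 and 653.8, a difference of effects of -2.79 (SE 0.71, adjusted p = 0.0302). Spp1 had means of 1.31 and 136.9 in macrophages (difference -4.48, SE 0.90, adjusted p = 0.00372). Selenop fell in monocytes and stood at 143.9 and 194.8 in macrophages (-2.80, SE 0.35, adjusted p = 7.38e-07). The class II genes H2-Aa and Cd74 had lower means after ligation in monocytes and higher means in macrophages, where Cd74 went from 407.5 to 788.1 (difference -1.73, SE 0.38, adjusted p = 0.00981). Apoe and Maf differed likewise, by -2.04 and -1.46. Of the 90 genes 7 were on the endothelial list, among them Ptprb, whose Sham6w mean was 16.1 in macrophages and 221.3 in monocytes. For Igkc, at 313.7 in Sham6w macrophages, the difference of effects was 0.19 (adjusted p = 0.962). No difference of effects passed for any glycolysis, hypoxia or heat shock gene between these cell types, and for Ldha it was 0.83 (adjusted p = 0.217).

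**Figure D5:**
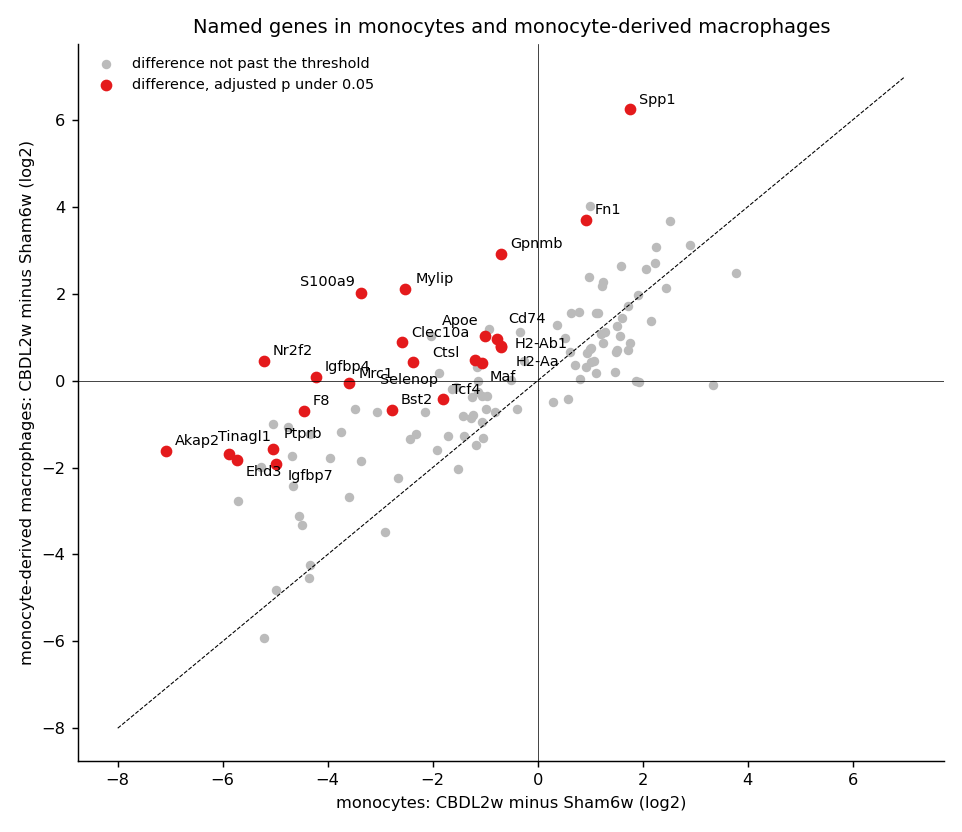
Difference between CBDL2w and Sham6w in monocytes (horizontal axis, log2) and in monocyte-derived macrophages (vertical axis, log2) for the genes named in the text; red points are genes whose effects differed between the cell types at an adjusted p under 0.05, and the broken line marks equal effects. All red points lie above the line, which is the side of a higher effect in macrophages, with Spp1 at 1.77 and 6.25 and Akap2 at -7.08 and -1.61.

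Against Kupffer cells the difference of effects passed for 126 genes, 16 higher in monocytes (0.212%) and 110 lower (1.46%). Cx3cr1, the fractalkine receptor, had a log2 difference of -0.34 in monocytes and 3.36 in Kupffer cells (difference of effects -3.70, SE 0.45, limma adjusted p = 5.66e-07), and Cd63, a lysosomal tetraspanin, -0.92 and 3.25. P4ha1 rose in monocytes and had a log2 difference of -1.26 in Kupffer cells (difference 3.13, SE 0.57, adjusted p = 0.000504). Alox5ap, Uqcrh and Fcer1g also differed, by 1.17, 1.09 and 0.91 in favour of monocytes. For Hsp90aa1 the effect in monocytes was lower than in Kupffer cells (difference of effects -1.12, SE 0.32, adjusted p = 0.0482). Without the Sham6w monocyte library 3+6, 48 genes differed from macrophages and 75 from Kupffer cells.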

How the data were processed

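The study sequenced 3′ ends of messenger RNA (Lexogen QuantSeq forward kit with molecular identifiers) from 58 libraries of mouse liver cells. The authors deposited 1 table of normalized counts, used here as a signal: reads per gene divided by a size factor for each library. Per the submitters' processing notes, the build was GRCm38.p6 and the tools were STAR 2.7.5b, DESeq2, UMI-tools 1.0.1, RSEM 1.3.1 and Trimmomatic (0.39 and 0.39-1), with no order or settings. Every value of the table came out as a whole number of reads within 0.01 once divided by the step of its library, and the read totals and the count tests used these recovered reads. The table holds 25307 genes, of which 25272 were matched by identifier to GENCODE M21 and 35 were not. Whether reads were counted by strand, and how reads shared by near-identical genes were split, is not given in the sources used here.

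Genes at 10 or more in at least 3 of the 19 monocyte libraries were tested (6112 genes), on log2 of the value plus 1, with limma 3.58.1 in R 4.3.3 over all 19 monocyte libraries, whose 5 groups share 1 estimate of the spread. The differences between cell types were interaction contrasts over all 58 libraries (7555 genes). A gene was called at a Benjamini-Hochberg adjusted p under 0.05. Fold changes on this scale understate those of low genes. Shares of lists were compared by a two-sided exact permutation test over the 35 ways to choose 3 of 7 libraries. Alternatives were a pseudocount of 5, no filter, equal totals, the recovered reads tested with DESeq2 1.42.0 or edgeR 4.0.16, only the 7 libraries, the replicate number as a block, weights, the endothelial or lymphoid level as a covariate, and each library left out.

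Named genes were the 12 largest rises and the 12 largest falls whose mean reached 50 in at least 1 of the groups and whose groups did not overlap, up to 3 called members with the smallest p of each state list, up to 3 of the most abundant members of each list of other cells, and fixed markers. Predicted genes, pseudogenes and members of other-cell lists were left out of the first part, and the text prints part of the named genes. The members and lists were chosen with earlier results of these data known. Tested on simulated data made from these libraries with 6055 genes tested, the fit recovered 9.7% of 93 genes changed 2-fold and 67% of 97 changed 4-fold, and 5.1% of its calls were false. Far fewer genes were changed there than the 841 called in the data. The adjusted threshold therefore differs, and the recovery in the real comparison is not known. The chi-square of read counts between replicates was 3.02 to 5.68 per degree of freedom, so no pair was a repeat of 1 library. Monocyte totals were 235531 to 377725 reads, so that 1 read is worth about 1 normalized count and low genes rest on a few reads; a group at 0 was set against a floor of 3 reads over the group (0.705), which covers counting error only.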

Additional observations from a re-analysis of the deposited data

Results flagged for a closer look

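Within the 4 CBDL2w libraries, 1 library stood far from the other 3 for 9 of 139 values examined by Dixon's criterion, which chance alone meets in about 1 of 20 groups. Replicate 1 was low for Chil1 (44.3) and Slpi (23.0) and high for Rsad2 (18.9) and Gbp9 (11.5). Replicate 2 was high for Il7r (3.60) and low for Spn (1.80). Replicate 3 had the lowest share of neutrophil genes (0.0237%), and replicate 4 was high for F8 (3.80) and low for Fcgr3 (123).

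The effect of early ligation differed between monocytes and another cell type for the named genes that follow, each by an interaction contrast in limma at an adjusted p under 0.05. Values are the effect in monocytes minus that in the other cells, on the log2 scale. Genes that liver endothelium is known for or that fell with its list stood lower in monocytes. Against monocyte-derived macrophages the difference was -5.46 for Akap2, -4.20 for Tinagl1, -3.91 for Ehd3, -5.68 for Nr2f2, -3.76 for F8, -4.32 for Igfbp4, -3.07 for Igfbp7 and -3.46 for Ptprb. Against Kupffer cells it was -6.55 for Akap2, -3.89 for Tinagl1, -4.56 for Ehd3, -4.28 for Nr2f2, -4.67 for Meis2, -3.55 for Col13a1, -3.24 for Igfbp4, -3.47 for Igfbp7, -4.30 for Ptprb and -4.38 for Kdr.

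Immunoglobulin and plasmacytoid dendritic cell genes differed mainly against Kupffer cells, where Igkc (-5.30), Ighm (-2.41), Igha (-5.20), Jchain (-4.55) and Siglech (-4.89) had sham levels of 0.951 to 3.06. Tcf4 differed by -1.37 from macrophages and -1.91 from Kupffer cells, and Bst2 by -2.11 and -2.85.

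Among the remaining named genes, Selenop differed by -2.80 from macrophages and -2.63 from Kupffer cells, Fn1 by -2.79 and -3.54, Mrc1 by -3.53 and -3.11, Clec10a by -3.46 and -3.21, and S100a9 by -5.39 and -4.49. Against macrophages alone the difference passed for Spp1 (-4.48), Mylip (-4.64), Gpnmb (-3.63), Apoe (-2.04), Cd74 (-1.73), Ctsl (-1.66), H2-Ab1 (-1.50), H2-Aa (-1.49) and Maf (-1.46). Against Kupffer cells alone it passed for Cxcl9 (-4.43), Cd63 (-4.17), Cx3cr1 (-3.70), Spn (-2.83), Herpud1 (-2.04), Ccr2 (-1.25) and Hsp90aa1 (-1.12). In the other direction, P4ha1 (3.13), Alox5ap (1.17), Uqcrh (1.09) and Fcer1g (0.91) had the higher effect in monocytes than in Kupffer cells.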

How the results depend on the processing

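The direction of all 492 rises and 349 falls was kept in every alternative except the endothelial covariate. The number of genes that rose was 326 with only the 7 libraries compared, and the number that fell was 580 with libraries weighted by joined replicate numbers. With the endothelial covariate 0 and 0 genes passed, and with the lymphoid covariate 56 and 82. Leaving out 1 library gave 332 to 534 rises and 227 to 418 falls, the lowest of both without the Sham6w library 3+6. Without the filter 341 rose and 501 fell of 21306 tested.

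The replicate numbers do not pair these samples by any label, and libraries with the same number had correlations of their deviations between -0.06 and 0.029. With the replicate number as a block, 77 genes rose and 29 fell. Adgre1 turned to -0.17 and Csf1r to -0.28 under this block, signs that rest on the same sham library. For the difference from monocyte-derived macrophages the block as a random effect gave 128 genes, and for that from Kupffer cells 133.

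Against CBDL6w, DESeq2 called 9 genes, and leaving out 1 library gave 0 to 1. The difference from macrophages counted 171 genes with a pseudocount of 5, 168 without the filter, 36 by edgeR and 48 to 113 with 1 library left out (67 without CBDL2w 3, 69 without Sham6w 1+2+5 and 48 without Sham6w 3+6). The difference from Kupffer cells counted 211 with a pseudocount of 5, 61 by edgeR and 75 to 133 with 1 library left out. The cause was not tested.

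With the endothelial covariate some named genes changed sign, at limma adjusted p of 0.696 to 0.996. The endothelial level did not overlap between the groups, so these signs give no direction. Igfbp7 and Kdr below are also members of the list that forms this covariate. Genes that turned negative were Saa3 (-1.99), Chil1 (-0.26), F10 (-0.16), Eno1 (-0.046), Ctss (-0.14), Slpi (-0.53), Cd14 (-0.85), Ier3 (-0.45), Clec4n (-2.60), Mmp8 (-1.90), Spp1 (-2.39), Trem2 (-0.53), Csf1r (-1.77) and Il1b (-0.57). Genes that turned positive were Ehd3 (0.66), Meis2 (3.44), Dlc1 (2.41), F8 (0.21), Igfbp7 (0.17), Kdr (1.87), Ctnnd1 (1.83), Ifi203 (0.89), Mndal (1.81), Cd36 (3.39), H2-K1 (0.10), Rsad2 (2.08), Gbp9 (1.13), Iigp1 (0.41), Isg15 (1.197), Cxcl9 (3.27), Cxcl10 (2.12), Atf4 (0.85), Il7r (2.69), Ccl5 (4.84), Gzma (2.74), S100a9 (0.56) and Ly6c2 (0.53). With the lymphoid covariate Il1b turned to -0.18, and without the Sham6w library 4 Trem2 turned to -0.15 and C1qa to 0.046, while C1qa stood at -0.849 without Sham6w 1+2+5 and -0.821 without CBDL2w 2. With the median log2 level of a list in place of its share, the platelet list (0.075), the stellate list (0.22) and the mitochondrial genes (0.015) turned positive. Of the 122 named genes, edgeR, DESeq2 and a pseudocount of 5 each left 120 on the same side of the threshold, and leaving out 1 library lost the call of 6 to 23, the most without the Sham6w library 3+6. At 235531 to 377725 reads a library, genes at a few reads cannot be told from 0.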

Other observations

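Of 20 tested genes of lysosomal proteases and membranes, Ctss rose and Ctsl fell. Of 14 genes of heme and iron handling 2 rose, Fth1 and Hebp1, and of 7 Ms4a membrane proteins Ms4a6d rose. Of 12 glucocorticoid-induced genes 2 rose, Thbs1 and the metallothionein Mt1, and 1 fell, Txnip. Of 17 genes of cell survival and death, Bak1 rose and Pmaip1 fell, and of 6 tested genes of DNA replication and mitosis 0 passed the threshold. Of 22 immediate early genes, which cell dissociation also raises, Ier3 rose and Klf2 and Klf4 fell. Of 18 genes of lipid- and scar-associated macrophages, Lgals3, Tyrobp and Spp1 rose and Ctsl, Fabp4 and Mmp14 fell.

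Of 13 integrin and selectin ligand genes 3 rose (Itgam, Itgb2 and Itgb5) and 2 fell (Itgal and Pecam1), of 13 C-type lectins Clec4n rose while Mrc1 and Clec10a fell, and of 5 Fc receptor genes 2 rose. Of 9 genes of prostaglandin and leukotriene synthesis Alox5ap and Pla2g7 rose and Hpgd fell. The share of conventional dendritic cell genes fell from a mean of 0.0235% to 0.00904% and that of platelet genes from 0.0125% to 0.00461% (exact permutation p = 0.0286 each, adjusted p = 0.0442). Among 3 tested genes of the conventional dendritic cell list, 2 had positive differences that did not pass, and Cadm1 fell. With the median log2 level in place of the share the platelet list turned to 0.075, with an exact permutation p of 0.83. Red cell genes stood at 0.0326% and 0.012% (exact permutation p = 0.0571), mast cell genes at 0.00389% and 0.00126% (p = 0.114 by the same exact test), and bile duct genes, 1 of which is Spp1, at 0.0106% and 0.0292% (exact permutation p = 0.0857).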
